A study of Mus musculus with 60 samples.

Results

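The sucrose-seeking ensemble of the nucleus accumbens (NAc) was compared with the non-ensemble population sorted from the same pools of mice. 12 libraries of the 60 in the series entered the comparison, chosen by their titles: 6 of the sucrose-seeking ensemble and 6 of the non-ensemble population, 3 female and 3 male pools on each side. All mice were Ai14xFosiCre animals, 8 to 16 weeks old at surgery, that had learned to self-administer both cocaine and sucrose and were then tested for cue-induced seeking of each reward, so the non-ensemble population came from animals with the same drug and sucrose history. In this line a tamoxifen-inducible Cre recombinase driven by the Fos locus switches on tdTomato. Mice were injected with hydroxytamoxifen right after the cocaine-seeking test, so that tdTomato marked the neurons active during cocaine seeking. Mice were killed 60 minutes after the later sucrose-seeking test, and the cFos protein present then was stained with an antibody. Dissociated cells that stained for NeuN were sorted. Sucrose-seeking cells were cFos-positive and tdTomato-negative, and non-ensemble cells carried neither mark. Each library was a bulk RNA library from sorted events pooled over 3 mice of one sex, so it averages over animals and over all cell types inside the gate. The region is labelled as NAc core, while the methods describe punches that also took in lateral shell.

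The NAc receives dopamine from the midbrain and glutamate from cortex, amygdala and hippocampus. Nearly all of its neurons are GABAergic medium spiny neurons that carry either the D1 or the D2 dopamine receptor, with a minority of interneurons. A neuronal ensemble is the sparse set of neurons that fire together during one experience. Firing opens calcium entry and switches on immediate early genes such as Fos, Arc and Egr1 within minutes. Their proteins, mostly transcription factors, outlast the transcripts and drive a later set of genes for neuropeptides and synaptic proteins.

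The libraries held between 10204968 and 21832467 gene counts in the sucrose-seeking ensemble and between 12881457 and 19757182 in the non-ensemble population. Striatal identity was present in all 12 libraries, with Drd1 at 62.2 to 122.6 and Ppp1r1b at 415.9 to 1151 CPM (counts per 1000000 gene counts of the library) before scaling. Slc17a7, a vesicular glutamate transporter gene of cortical neurons, was also present at 129.8 to 568.5 CPM. Female pool 2 carried Y-linked counts in all 4 of its sorted populations, with Ddx3y between 11.3 and 18.2 CPM, against at most 2.0 CPM in the other female pools and 15.7 to 43.1 CPM in male pools. The counts over all genes and over the vascular lists are therefore given with and without that pool, as are the calls it decides. Both populations of a pool share animals, so the pool was a term of the fit. Levels below are CPM scaled by the trimmed mean of M-values, fold changes are log2 values of the sucrose-seeking ensemble over the non-ensemble population, and adjusted p-values come from edgeR's quasi-likelihood test with Benjamini-Hochberg adjustment over all 25150 genes tested.

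The transcriptomes of the 2 populations differed broadly. Of the 25150 genes, 4234 (16.8%) were higher and 4934 (19.6%) lower in the sucrose-seeking ensemble at an adjusted p under 0.05. At a stricter threshold, where the log2 fold change also had to exceed 0.75 in size and the adjusted p to stay under 0.01, 1372 genes (5.46%) were higher and 646 (2.57%) lower. The 6 sucrose-seeking libraries lay above all 6 non-ensemble libraries for 1086 genes (4.32%) and below all 6 for 1995 genes (7.93%). Without female pool 2, 3785 genes were higher and 4505 lower, and 1204 and 634 at the stricter threshold. The counts at the stricter threshold rested partly on single libraries: 913 genes were higher without female sucrose-seeking replicate 3, and 374 or 394 were lower without female non-ensemble replicate 3 or male non-ensemble replicate 2.

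The direction of change depended on how abundant a transcript was. Among the 552 genes above 300 CPM the median log2 fold change was -0.46, with 19.0% higher and 72.3% lower. Among the 5052 genes under 1 CPM it was 0.75, with 6.89% higher and 0.24% lower. The classes between them fell in order, with medians of 0.55 at 1 to 3 CPM, 0.29 at 3 to 10 CPM, -0.02 at 10 to 30 CPM, -0.23 at 30 to 100 CPM and -0.36 at 100 to 300 CPM. Over all genes the median was 0.22, and over the 10922 genes of at least 10 CPM it was -0.18, with 20.4% higher and 43.1% lower. The low-count filter kept a gene that was high enough in as many libraries as a population holds. Genes of the lowest classes could therefore enter through the population where they were high. The part that the filter has in the medians of these classes was not tested. Without the filter the median over 34892 genes was 0.34. The counts and medians of the gene lists below are read beside the values of the level classes, with this limit for the lowest ones.

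**Figure D1:**
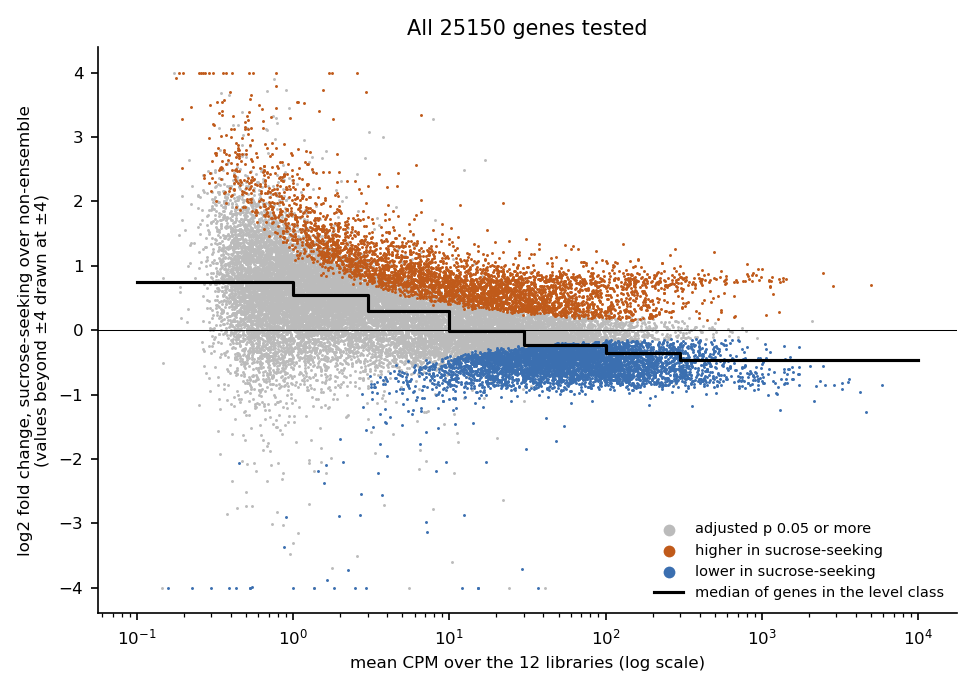
Each point is a gene, at its mean CPM over the 12 libraries (log axis) and its log2 fold change, sucrose-seeking over non-ensemble. Orange and blue points passed an adjusted p of 0.05, and the black steps give the median of each level class, 0.75 for the least and -0.46 for the most abundant genes.

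Whole-library measures moved with the populations too. Pseudogenes took 4.88% to 7.71% of gene counts in the sucrose-seeking ensemble (median 6.89%), against 3.05% to 4.24% in the non-ensemble population (median 3.71%). Mitochondrially encoded genes took 1.71% to 2.25% (median 1.98%) in the sucrose-seeking ensemble and 2.54% to 3.44% (median 3.13%) in the non-ensemble population. Between 26058 and 28265 genes had at least 5 counts in sucrose-seeking libraries, against 22463 to 25119 in non-ensemble libraries. These 3 ranges did not overlap, and every pool moved the same way (exact paired permutation test over 6 pools, two-sided p = 0.03125 for each, the smallest that 6 pools allow). The cocaine-seeking and overlapping ensembles of the same pools lay between them, with median pseudogene shares of 5.24% and 5.21% and median mitochondrial shares of 2.50% and 2.55%. What part these library differences have in the gene results was not tested. A second measure of expression bears on many results. When the counts were rescaled by the transcript lengths that Salmon estimated for each library, of the 9168 called genes (36.5% of those tested) 4294 (46.8%) were called in the same direction, 1354 (14.8%) had the opposite sign and 208 (2.27%) were called in the opposite direction. Length-scaled values are given beside the lists whose counts or median they change most and beside the named genes whose sign they change.

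**Figure D2:**
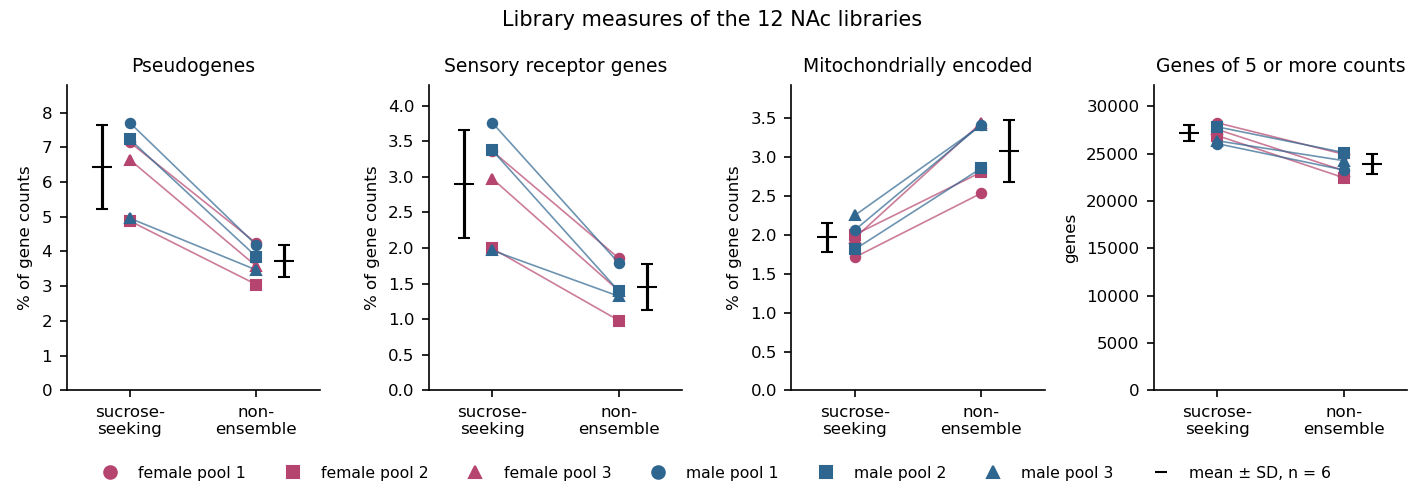
Shares of gene counts in pseudogenes, sensory receptor genes and mitochondrially encoded genes, and the number of genes with 5 or more counts, in each library. Lines join the populations of a pool and bars give mean ± SD (n = 6). All 6 pools moved the same way in each panel.

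The markers used for sorting did not rise at the RNA level in the sucrose-seeking ensemble. Fos, which encodes the protein that defined this gate, had 5.54, 8.96 and 17.4 CPM (lowest, median and highest library) in the sucrose-seeking ensemble, against 6.51, 12.8 and 22.1 CPM in the non-ensemble population. The ranges overlapped widely, and Fos was lower in 5 of 6 pools (log2 fold change -0.41, SE 0.17, adjusted p = 0.06134, and between 0.0351 and 0.3413 over the alternatives). With length-scaled counts Fos passed the test as lower (-0.77, adjusted p = 0.0351). Rbfox3, the gene of the NeuN antigen on which both populations were gated, had 181, 195 and 254 CPM in the sucrose-seeking ensemble, against 238, 291 and 309 CPM in the non-ensemble population. It was lower in all 6 pools (-0.48, SE 0.06, adjusted p = 3.401e-07), but its length-scaled fold change was 0.04 (adjusted p = 0.862).

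The promoters of activity-regulated genes often hold the cAMP response element (CRE), a palindrome bound by CREB. The 250 bases before the start of 3 genes are shown. 2 of them stand for the activity-linked results: Fos, whose protein set the gate, and Scg2, a later-phase secretogranin gene. Sst, the somatostatin gene of a class of interneurons, is an example from outside the activity lists whose window holds the element. Capitals mark the 8-base CRE TGACGTCA, which reads the same on both strands. Sequences are RefSeq's on GRCm38.p6, on the strand of the gene.
Fos (chr12:85473640-85473889, + strand): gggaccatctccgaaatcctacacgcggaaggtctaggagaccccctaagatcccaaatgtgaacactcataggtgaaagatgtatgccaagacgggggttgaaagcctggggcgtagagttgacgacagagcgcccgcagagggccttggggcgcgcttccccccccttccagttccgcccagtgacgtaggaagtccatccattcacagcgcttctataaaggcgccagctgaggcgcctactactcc
Scg2 (chr1:79440027-79440276, - strand): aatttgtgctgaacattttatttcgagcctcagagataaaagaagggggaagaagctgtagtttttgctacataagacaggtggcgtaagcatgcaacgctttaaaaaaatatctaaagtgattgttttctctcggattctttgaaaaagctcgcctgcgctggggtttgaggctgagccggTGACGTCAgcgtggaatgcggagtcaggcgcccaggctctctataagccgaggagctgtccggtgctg
Sst (chr16:23890845-23891094, - strand): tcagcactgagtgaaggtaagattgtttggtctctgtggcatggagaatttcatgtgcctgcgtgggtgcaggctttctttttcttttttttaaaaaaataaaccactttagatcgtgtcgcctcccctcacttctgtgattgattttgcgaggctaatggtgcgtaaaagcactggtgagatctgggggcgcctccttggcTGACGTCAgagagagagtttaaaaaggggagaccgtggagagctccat

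The CRE began 68 bases before the start of Scg2 and 48 bases before the start of Sst. The Fos window held no exact match to these letters. Of the 14430 tested genes with a RefSeq promoter window (250 bases before to 50 bases after the start), 410 (2.84%) held the CRE. The share was 2.82% among genes higher in the sucrose-seeking ensemble and 3.94% among genes lower in it. Among genes of at least 10 CPM it was 3.62% for higher and 4.04% for lower genes, against 3.70% of all genes at that level. Among the 26 early activity genes with a window, 3 held it: Btg2, Dusp1 and Maff. The related AP-1 letters TGACTCA, searched on both strands and sharing their outer letters with the CRE, stood in 5.22% of all windows, in 5.98% of those of higher genes and in 3.83% of those of lower genes. At a level of at least 10 CPM they stood in 5.6% for higher and 3.91% for lower genes, against 4.31% of all genes.

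More early activity genes were lower than higher in the sucrose-seeking ensemble, at about the share of all genes of similar level. Of 31 tested, 3 were higher and 13 lower (43.1% of all genes of at least 10 CPM were lower), with a median log2 fold change of -0.33, although the median with length-scaled counts was 0.10. Jund, a partner of Fos in the AP-1 complex, had 70.6, 94.0 and 134 CPM in the sucrose-seeking ensemble, against 134, 177 and 213 CPM in the non-ensemble population (-0.87, SE 0.09, adjusted p = 8.762e-09, length-scaled fold change -0.29). Egr3, a zinc-finger transcription factor, had 56.5, 68.7 and 89.2 CPM, against 97.4, 113 and 134 CPM in the non-ensemble population (-0.66, SE 0.08, adjusted p = 1.087e-07), so its groups did not overlap. Arc, which encodes a capsid-like protein of the postsynapse, had 57.0, 85.3 and 120 CPM, against 81.0, 132 and 194 CPM in the non-ensemble population (-0.64, SE 0.08, adjusted p = 1.27e-07). Its ranges overlapped, and its length-scaled fold change was positive (0.29, adjusted p = 0.3266).

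Other members of the list were lower by similar amounts. Jun (-0.55, adjusted p = 2.046e-05), Junb (-0.62, adjusted p = 0.0003315), Egr4 (-0.83, adjusted p = 0.000138), Ier5 (-0.73, adjusted p = 5.329e-07) and the orphan nuclear receptor gene Nr4a3 (-0.69, adjusted p = 2.581e-06) were lower in all 6 pools. Per1, a clock gene that is also induced by activity, was lower by counts (-0.33, adjusted p = 0.0001045) and higher with length-scaled counts (0.80, adjusted p = 0.007344). Egr1 had 38.2, 50.2 and 85.1 CPM in the sucrose-seeking ensemble and 52.8, 67.1 and 96.1 CPM in the non-ensemble population, which did not pass the test (-0.35, SE 0.20, adjusted p = 0.1741). Neither did Fosb (-0.33, SE 0.15, adjusted p = 0.09271, length-scaled fold change 0.16). Npas4, a factor induced selectively by neuronal calcium entry, had 11.5, 21.8 and 30.0 CPM in the sucrose-seeking ensemble, against 13.8, 17.4 and 19.7 CPM in the non-ensemble population. It was higher in 5 of 6 pools without passing the test (0.29, SE 0.16, adjusted p = 0.1612), and passed it with length-scaled counts (1.15, adjusted p = 0.0002144). The 3 higher genes were Klf4 (0.70, adjusted p = 0.00801), Klf2 (0.83, adjusted p = 0.03875) and Maff (1.11, adjusted p = 0.04829). All 3 had medians under 10 CPM and each lost its call when some single library was left out (highest adjusted p 0.06109, 0.1232 and 0.1713). Without female pool 2 the adjusted p of Klf2 was 0.126 and that of Maff 0.124.

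The later wave and its brakes held more lower than higher members as well. Of 21 delayed activity genes 1 was higher and 11 were lower (median -0.45, and -0.73 with length-scaled counts), and of 14 MAP kinase feedback genes none was higher and 7 were lower (median -0.37). Both shares stand beside the 43.1% lower among all genes of at least 10 CPM. Scg2 had 171, 207 and 277 CPM in the sucrose-seeking ensemble, against 299, 353 and 410 CPM in the non-ensemble population (-0.75, SE 0.07, adjusted p = 5.424e-09). Its groups did not overlap. Vgf, a neuropeptide precursor gene, was also separate between the groups, at 97.3 to 153 CPM against 193 to 286 CPM in the non-ensemble population (-0.82, SE 0.07, adjusted p = 2.55e-09), while its length-scaled fold change was -0.04 (adjusted p = 0.917). Rgs4, which shortens G protein signals, and Nrn1, the neuritin gene, were lower by similar amounts (-0.74 each). Spred1 and Spred2, inhibitors of the Ras to MAP kinase pathway, had fold changes of -0.60 and -0.63 (adjusted p = 3.103e-08 and 2.435e-07). Of 16 heat shock and chaperone genes, 1 was higher and 12 were lower (median -0.63, and -0.88 with length-scaled counts), beside the same 43.1%. Hspa8, the constitutive HSP70 gene, had 808 to 1257 CPM in the sucrose-seeking ensemble and 1552 to 1990 CPM in the non-ensemble population (-0.83, SE 0.08, adjusted p = 2.862e-09). Hsp90ab1 (-0.76), Hsph1 (-0.62) and Hspa5, a chaperone gene of the endoplasmic reticulum (-0.56), were also lower.

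**Figure D3:**
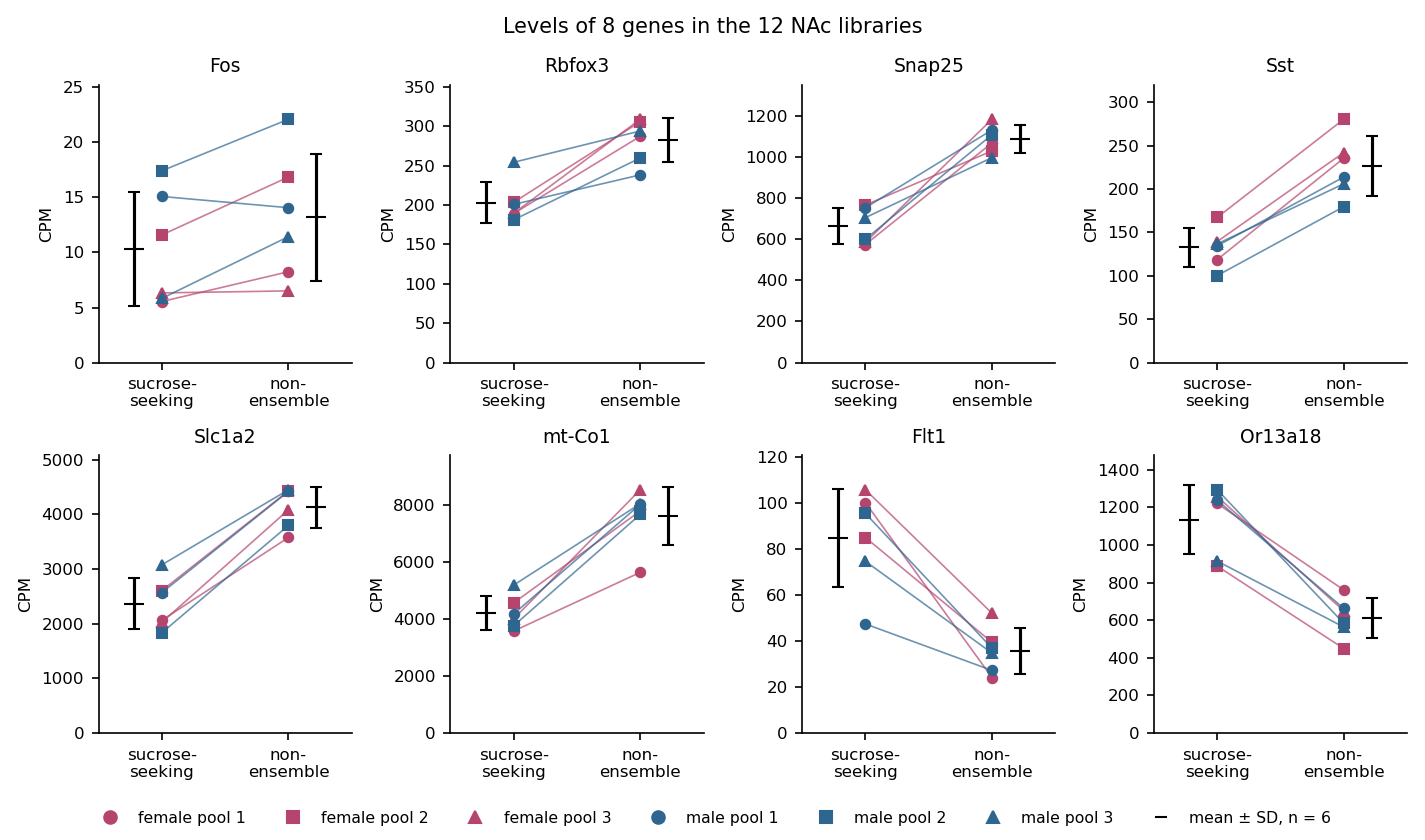
CPM of 8 genes in each library, sucrose-seeking on the left and non-ensemble on the right of each panel, with lines joining the populations of a pool and bars at mean ± SD (n = 6). Fos overlapped between the populations, Snap25, Sst, Slc1a2 and mt-Co1 were lower in all 6 sucrose-seeking libraries, and Flt1 and Or13a18 were higher in all 6 pools. Rbfox3 was lower by counts and not with length-scaled counts.

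Transcripts of a broad neuronal list, which also holds genes of GABAergic neurons such as Gad1, were lower in the sucrose-seeking ensemble. All 28 pan-neuronal genes tested were lower (median -0.75, and -0.55 with 18 lower using length-scaled counts). Of the 28, 21 were separate between the groups, against 7.93% of all genes at any level. Abundant genes were mostly lower in general, 66.1% of those at 100 to 300 CPM and 72.3% of those above 300 CPM. Snap25, a SNARE protein gene of the synaptic vesicle fusion machinery, had 574, 653 and 766 CPM in the sucrose-seeking ensemble, against 997, 1089 and 1184 CPM in the non-ensemble population (-0.72, SE 0.07, adjusted p = 1.199e-08). Nefl, the light neurofilament gene, had 147, 219 and 322 CPM, against 360, 507 and 623 CPM in the non-ensemble population (-1.17, SE 0.07, adjusted p = 9.88e-11). Neither gene overlapped between the groups. The complexin genes Cplx1 (-0.98) and Cplx2 (-0.82), whose proteins clamp the SNARE complex, were lower too. The summed level of the list was 11070 to 15780 CPM in the sucrose-seeking ensemble and 19330 to 23180 CPM in the non-ensemble population, with medians of 17020 and 16970 CPM in the cocaine-seeking and overlapping ensembles. In these bulk libraries fewer cells of a type and less RNA per cell cannot be told apart.

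No marker of either class of medium spiny neuron was higher. For the D1 class 3 of 9 genes were lower (median -0.26, and -0.43 with 5 lower using length-scaled counts). For the D2 class 6 of 7 were lower (median -0.49, and -0.13 with 2 lower using length-scaled counts). Both stand against 43.1% of all genes of at least 10 CPM. Drd1 had 59.6, 79.8 and 103 CPM in the sucrose-seeking ensemble, against 65.2, 104 and 128 CPM in the non-ensemble population (-0.36, SE 0.07, adjusted p = 0.000215). Drd2 had 55.0, 86.2 and 103 CPM, against 65.1, 123.4 and 153 CPM in the non-ensemble population (-0.45, SE 0.07, adjusted p = 1.924e-05), but its length-scaled fold change was 0.38 (adjusted p = 0.1101). Both receptor genes overlapped between the groups while moving down in all 6 pools, and without the pool as a term neither passed the test (adjusted p = 0.0976 for Drd1 and 0.0591 for Drd2). Among the neuropeptide genes, Penk, the enkephalin precursor of the D2 class, had 458, 746 and 922 CPM, against 728, 1212 and 1410 CPM in the non-ensemble population (-0.66, SE 0.05, adjusted p = 4.295e-10). Pdyn, the dynorphin precursor of the D1 class, was lower by the same amount (-0.66, SE 0.08, adjusted p = 1.521e-07), and Tac1, the substance P precursor, by less (-0.43, SE 0.10, adjusted p = 0.001307). Adora2a, the adenosine receptor gene of the D2 class, was lower by counts (-0.52, adjusted p = 1.02e-06) and flat with length-scaled counts (0.03, adjusted p = 0.917).

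Of 18 genes shared by both medium spiny classes, 1 was higher and 12 were lower (median -0.37, and 0.11 with length-scaled counts), and 6 were lower without the pool as a term. This list and the cortical list below stand beside 43.1% lower among all genes of at least 10 CPM. Ppp1r1b, which encodes the dopamine-regulated phosphatase inhibitor DARPP-32, had 381, 583 and 881 CPM in the sucrose-seeking ensemble, against 681, 1102 and 1270 CPM in the non-ensemble population (-0.82, SE 0.06, adjusted p = 2.439e-10, length-scaled fold change -0.21). Bcl11b, a transcription factor of striatal projection neurons (-0.70, adjusted p = 5.242e-10), and Rasd2, a striatal small GTPase gene (-0.73, adjusted p = 1.858e-09), were lower by counts and not with length-scaled counts (0.14 and 0.22). Gad1, which makes GABA, was lower under both (-0.65 and -0.82). Its levels were 255 to 370 CPM in the sucrose-seeking ensemble and 368 to 518 CPM in the non-ensemble population, so the ranges overlapped slightly. Of 9 markers of cortical excitatory neurons, none was higher and 6 were lower (median -0.51, and -0.32 with 3 lower using length-scaled counts). Slc17a7 had 121 to 419 CPM in the sucrose-seeking ensemble and 212 to 596 CPM in the non-ensemble population (-0.71, adjusted p = 2.391e-09, length-scaled fold change 0.26), and Tbr1 was also lower (-0.67, adjusted p = 1.28e-05).

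Striatal interneuron genes were mostly lower, 12 of 17 against 1 higher (median -0.65, and -0.69 with 7 lower using length-scaled counts). Among all genes of at least 10 CPM 20.4% were higher and 43.1% lower. Sst had 100, 136 and 167 CPM in the sucrose-seeking ensemble, against 180, 225 and 280 CPM in the non-ensemble population (-0.77, SE 0.08, adjusted p = 9.232e-09). Pvalb, the parvalbumin gene of fast-spiking interneurons, had 5.79, 8.09 and 11.0 CPM, against 12.04, 17.5 and 22.4 CPM in the non-ensemble population (-1.04, SE 0.14, adjusted p = 1.493e-06). Neither gene overlapped between the groups. Calb2, the calretinin gene, did overlap (-1.001, SE 0.17, adjusted p = 1.933e-05). Nos1, the neuronal nitric oxide synthase gene, was lower by counts (-0.65, adjusted p = 5.853e-08) with a length-scaled fold change of 0.35. The exception was Chodl, a lectin gene found with Sst and Nos1 in a sparse class of cells, at 137, 198 and 264 CPM in the sucrose-seeking ensemble and 80.6, 110 and 149 CPM in the non-ensemble population (0.73, SE 0.08, adjusted p = 6.315e-08, length-scaled fold change 0.05). Genes of neuroblasts and dividing cells gave no common direction, with 4 higher and 3 lower of 11 (median -0.17, and 1 higher and 3 lower using length-scaled counts).

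Dopamine and cAMP signalling genes showed no higher member and 18 lower of 24 (median -0.44, and -0.12 with 4 higher and 6 lower using length-scaled counts). Gnas, the stimulatory G protein gene, had 267 to 494 CPM in the sucrose-seeking ensemble and 523 to 842 CPM in the non-ensemble population (-0.86, SE 0.06, adjusted p = 2.517e-10), and its groups did not overlap. The protein kinase A genes Prkacb (-0.71, adjusted p = 4.697e-09) and Prkar1b (-0.85, adjusted p = 4.335e-10) were lower, the second with a length-scaled fold change of -0.10. The adenylyl cyclase gene Adcy1 was lower by counts (-0.72, adjusted p = 5.245e-10) but had a length-scaled fold change of 0.34. Of 16 GABA-A receptor subunits, 1 was higher and 6 were lower (median -0.29, and -0.52 with 9 lower using length-scaled counts). Both lists stand beside 43.1% lower among all genes of at least 10 CPM. Gabrb2 had 94.3, 115 and 129 CPM in the sucrose-seeking ensemble, against 145, 166 and 199 CPM in the non-ensemble population (-0.57), and its groups did not overlap. Gabra3 was also lower, at -0.62.

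Glutamate receptors split by gene. Of 18 ionotropic subunits 4 were higher and 8 lower (median -0.06, and 0.21 with length-scaled counts), and of 8 metabotropic receptors 2 were higher and 4 lower (median -0.16, and 0.31 with length-scaled counts). Among all genes of at least 10 CPM 20.4% were higher and 43.1% lower. Grik2, a kainate receptor subunit, had 110, 198 and 234 CPM in the sucrose-seeking ensemble, against 87.0, 121 and 146 CPM in the non-ensemble population (0.63, SE 0.08, adjusted p = 7.258e-07). Grm7, a presynaptic metabotropic receptor, had 89.1, 166 and 181 CPM, against 65.9, 94.3 and 130 CPM in the non-ensemble population (0.68, SE 0.10, adjusted p = 1.909e-06). Both were higher in all 6 pools, and in both the sucrose-seeking library of male pool 1 lay far below the other 5. On the lower side, Grin2b, an NMDA receptor subunit, was at -0.42 (adjusted p = 1.453e-06, length-scaled fold change -0.01) and Grm3 at -0.37 (adjusted p = 1.744e-05). Grik5 was lower by counts (-0.32, adjusted p = 6.868e-05) and higher with length-scaled counts (0.53, adjusted p = 0.01095).

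Among 93 potassium channel genes, 5 were higher and 38 lower (median -0.20, and 0.02 with 13 higher and 14 lower using length-scaled counts). This list and the channel and adhesion lists that follow stand beside 20.4% higher and 43.1% lower among all genes of at least 10 CPM. Kcnj10, the glial inward rectifier, was lower at 83.4 to 118 CPM in the sucrose-seeking ensemble and 141 to 194 CPM in the non-ensemble population (-0.81, adjusted p = 1.122e-09). Kcnj4 (-0.71) and the axonal channel gene Kcna2 (-0.57) were lower too. Of 24 sodium and calcium channel genes 2 were higher and 7 lower (median 0.01), but 7 were higher and 5 lower with length-scaled counts (median 0.20). The auxiliary sodium channel subunit Scn2b (-0.74, adjusted p = 1.391e-09) and the pore subunit Scn2a (-0.40, adjusted p = 1.836e-06) were among the lower. Synapse adhesion genes gave 4 higher and 10 lower of 24 (median -0.17, and 2 higher and 5 lower using length-scaled counts). Nrxn2 (-0.57), Nlgn2 (-0.57) and the latrophilin gene Adgrl1 (-0.58) were lower by counts, with length-scaled fold changes of -0.04, 0.35 and 0.35, while Ptprd, a presynaptic receptor phosphatase gene, was higher (0.38, adjusted p = 9.176e-06). Of 58 clustered protocadherins, which give neurons individual surface identities, 9 were higher and 4 lower (median 0.15). Pcdhgb4 was higher (0.68, adjusted p = 0.0002549) and Pcdhgc5 lower (-0.66, adjusted p = 4.246e-09).

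**Figure D4:**
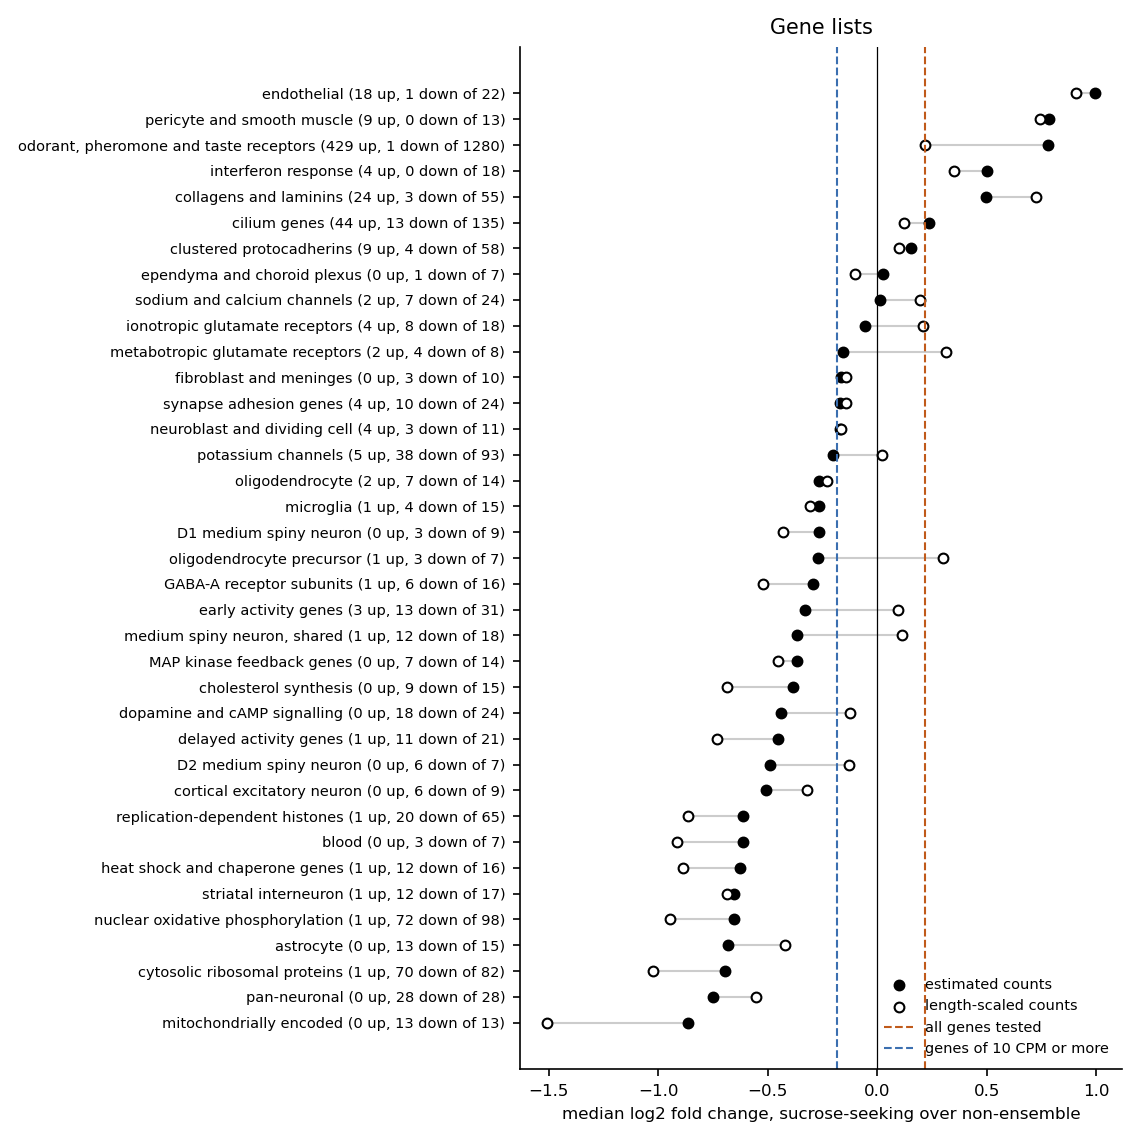
Median log2 fold change of each gene list, sucrose-seeking over non-ensemble, from the estimated counts (filled) and from length-scaled counts (open). Labels give the members higher and lower at an adjusted p of 0.05. Endothelial genes were highest (0.99) and mitochondrially encoded genes lowest (-0.86). The medians of early activity, medium spiny (shared), oligodendrocyte precursor, potassium channel, ependymal and glutamate receptor genes changed sign with length scaling.

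Housekeeping transcripts of translation and respiration were lower as whole groups. Their counts stand beside 43.1% lower among all genes of at least 10 CPM. At 100 to 300 CPM 66.1% of all genes were lower, and above 300 CPM 72.3%. Of 82 cytosolic ribosomal protein genes, 1 was higher and 70 were lower (median -0.69, and -1.02 with length-scaled counts). Of 98 nuclear genes of oxidative phosphorylation, 1 was higher and 72 were lower (median -0.65, and -0.94 with length-scaled counts). All 13 mitochondrially encoded genes were lower (median -0.86, and -1.51 with length-scaled counts). mt-Co1, a subunit of cytochrome c oxidase, had 3572, 4086 and 5181 CPM in the sucrose-seeking ensemble, against 5628, 7894 and 8521 CPM in the non-ensemble population (-0.85, SE 0.06, adjusted p = 2.517e-10). Rpl41 had 86.6, 104 and 133 CPM, against 166, 197 and 225 CPM in the non-ensemble population (-0.88, SE 0.07, adjusted p = 5.245e-10), and Rpl3 and Rpl13a followed at -0.74 and -0.87. Atp5f1b, the catalytic subunit of ATP synthase, had 322 to 468 CPM, against 604 to 756 CPM in the non-ensemble population (-0.81, SE 0.08, adjusted p = 8.299e-09). None of these 3 genes overlapped between the groups. Cox8a (-0.75) and Uqcrc1 (-0.70), of complexes IV and III, were also lower. mt-Nd5 (-0.96) and mt-Nd6 (-0.92) overlap on opposite strands, and how strand was handled in counting is not given in the sources used here.

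Histone genes were lower in 20 of 65 and higher in 1 (median -0.61, and -0.86 with length-scaled counts). That count stands beside 43.1% lower among all genes of at least 10 CPM and 19.6% among all genes tested. The linker histone genes H1f2 (-0.94, adjusted p = 4.774e-08) and H1f4 (-0.84, adjusted p = 2.851e-07) and the core histone gene H3c6 (-1.06, adjusted p = 1.135e-05) were the clearest. Cholesterol synthesis genes were lower in 9 of 15 and higher in none (median -0.39, and -0.68 with length-scaled counts), beside the same 43.1%. Hmgcs1 was at -0.73 (adjusted p = 1.258e-07). The single members that went against a list, named here after their values were seen, were the delayed activity gene Inhba (0.43), the heat shock factor gene Hsf1 (0.48), the medium spiny gene Rgs9 (0.47), the GABA-A subunit gene Gabrg3 (0.22), Rpl12 (0.98), the ATP synthase subunit gene Atp5mg (0.34) and the histone gene H4c16 (0.44), of which Atp5mg and H4c16 were at -0.66 and -0.04 with length-scaled counts.

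Genes of blood vessels moved the opposite way. Of 22 endothelial genes 18 were higher and 1, Bsg (-0.33), was lower (median 0.99, and 0.91 with length-scaled counts). Of 13 genes of pericytes and smooth muscle, 9 were higher and none lower (median 0.78, and 0.75 with 5 higher using length-scaled counts). Both medians stood above the 0.22 of all genes. Of all genes of at least 10 CPM 20.4% were higher, and of all genes tested 16.8%. Flt1, a receptor of vascular endothelial growth factor, had 47.3, 90.1 and 106 CPM in the sucrose-seeking ensemble, against 24.1, 35.8 and 52.0 CPM in the non-ensemble population (1.26, SE 0.12, adjusted p = 8.398e-09). Kdr, the other main receptor of that factor, had 12.5, 27.8 and 36.6 CPM, against 7.40, 12.1 and 13.7 CPM in the non-ensemble population (1.20, SE 0.16, adjusted p = 8.53e-07). Cldn5, the tight junction gene of the blood-brain barrier, had 3.05, 19.9 and 24.6 CPM, against 2.12, 6.67 and 8.65 CPM in the non-ensemble population (1.45, SE 0.31, adjusted p = 0.0004413). All 3 genes were higher in all 6 pools, but their groups overlapped, with the sucrose-seeking library of male pool 1 lowest of its 6. Pecam1 (0.80) and Vwf (0.71), the von Willebrand factor gene, were separate between the groups. Slco1a4, an organic anion transporter gene of the barrier, was higher by counts (1.56, adjusted p = 1.345e-07) and lost its call with length-scaled counts (0.53, adjusted p = 0.2689).

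Among the mural genes, Rgs5 had 13.5, 50.8 and 55.8 CPM in the sucrose-seeking ensemble, against 17.3, 23.0 and 28.4 CPM in the non-ensemble population (0.91, SE 0.17, adjusted p = 0.0001291), and was higher in 5 of 6 pools. Pdgfrb (0.50, adjusted p = 0.000504), Abcc9 (0.86, adjusted p = 0.001163) and the smooth muscle myosin gene Myh11 (0.92, adjusted p = 0.001965) were also higher. The summed level of the endothelial list was 427 to 763 CPM (median 724) in the sucrose-seeking ensemble and 466 to 558 CPM (median 496) in the non-ensemble population, higher in 5 of 6 pools, and its medians in the cocaine-seeking and overlapping ensembles were 529 and 476.5 CPM. Male pool 1 was the exception, and no endothelial marker was at 0 in any of the 12 libraries. Without the sucrose-seeking library of male pool 1, 19 endothelial and 8 mural genes were higher. Without female pool 2 the counts were 17 and 7, and without female sucrose-seeking replicate 1 they were 17 and 5. Both populations were gated on NeuN, which vascular cells lack, and the part that vascular cells or fragments have in these values was not tested.

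Basement membrane and matrix genes were higher in larger number than lower, while among all genes of at least 10 CPM 20.4% were higher and 43.1% lower. Of 55 collagen and laminin genes 24 were higher and 3 lower (median 0.50, and 0.72 with 25 higher and none lower using length-scaled counts). Col25a1 (-0.29, but 0.37 with length-scaled counts) and Col1a2 (-0.55) were among the lower. Col4a1, a basement membrane collagen, had 47.6, 72.9 and 83.5 CPM in the sucrose-seeking ensemble, against 27.3, 37.2 and 58.4 CPM in the non-ensemble population (0.88, SE 0.12, adjusted p = 6.744e-07). Col6a1 (1.05, SE 0.13, adjusted p = 1.352e-07) and Col11a1 (1.09, SE 0.17, adjusted p = 5.759e-06) were higher in all 6 pools. The summed level of this list did not overlap, at 1031 to 1344 CPM in the sucrose-seeking ensemble and 803 to 963 CPM in the non-ensemble population. Of 18 interferon response genes 4 were higher and none lower (median 0.50, beside 20.4% higher among all genes of at least 10 CPM): Mx1 (1.06, adjusted p = 0.002836), Stat2 (0.48, adjusted p = 0.00461), Oas3 (0.59, adjusted p = 0.01988) and Irf7 (0.64, adjusted p = 0.03646). Oas3 and Irf7 each lost the call when some single library was left out, Oas3 also without female pool 2 (adjusted p = 0.0641), and 2 genes of the list were higher without male non-ensemble replicate 2 or without the pool as a term.

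Astrocyte transcripts were lower, and other glial lists were mixed. Their counts stand beside 20.4% higher and 43.1% lower among all genes of at least 10 CPM. Of 15 astrocyte genes none was higher and 13 were lower (median -0.68, and -0.42 with 1 higher and 8 lower using length-scaled counts). Slc1a2, the main astrocytic glutamate transporter gene, was at 1835, 2316 and 3077 CPM in the sucrose-seeking ensemble, against 3576, 4251 and 4449 CPM in the non-ensemble population (-0.82, SE 0.06, adjusted p = 3.798e-10). Slc1a3 (-0.70) and Aldoc (-0.83) were lower too, and the summed level of the list did not overlap, at 3366 to 5100 CPM against 5722 to 7171 CPM in the non-ensemble population. Astrocyte markers were thus abundant in both NeuN-gated populations. Of 14 oligodendrocyte genes 2 were higher and 7 lower (median -0.26). Mbp, the myelin basic protein gene, had 683 to 1189 CPM in the sucrose-seeking ensemble and 982 to 1640 CPM in the non-ensemble population (-0.60, SE 0.06, adjusted p = 2.762e-08) and Mobp was at -0.49, while Aspa was higher by counts (0.80, adjusted p = 1.875e-05) with a length-scaled fold change of 0.11. Of 7 oligodendrocyte precursor genes 1, the proteoglycan gene Vcan (0.61, adjusted p = 3.928e-06), was higher and 3 were lower (median -0.27, and 0.30 with length-scaled counts). Tnr was lower by counts (-0.31, adjusted p = 3.845e-05) with a length-scaled fold change of 0.27.

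Of 15 microglial genes 1 was higher and 4 lower (median -0.26, and -0.31 with none higher and 6 lower using length-scaled counts). This list and those that follow stand beside 43.1% lower among all genes of at least 10 CPM and 19.6% among all genes tested. Ctss, a lysosomal protease gene, was lower (-0.66, adjusted p = 7.281e-06), as was the complement gene C1qa (-0.40, adjusted p = 0.01018), while Siglech was higher in 5 of 6 pools (0.61, adjusted p = 0.02107). Genes of fibroblasts and meninges had none higher and 3 of 10 lower (median -0.17), with Igf2 at -1.14 (adjusted p = 0.0003434). Ependymal and choroid plexus genes had none higher and 1 of 7, the ciliogenesis factor gene Foxj1 (-0.81, adjusted p = 0.006683), lower (median 0.03, and -0.10 with length-scaled counts). Blood genes had none higher and 3 of 7 lower (median -0.61): the globin genes Hba-a1 (-0.90), Hba-a2 (-0.89) and Hbb-bs (-0.90), of which the first 2 are near-identical copies whose counts cannot be split with certainty. Thus no member of the astrocyte, blood, meningeal or ependymal lists passed the test as higher.

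The longest list was that of the sensory receptor genes, which encode odorant, pheromone and taste receptors and are expressed mainly in sensory epithelia. Of 1280 tested, 429 were higher and 1 was lower at an adjusted p of 0.05 (median 0.78). The lower one, Vmn1r114, had no counts in the sucrose-seeking ensemble and averaged 0.316 CPM in the non-ensemble population. With length-scaled counts 30 were higher and 5 lower (median 0.22). Of all genes tested 16.8% were higher by counts, and of those at 3 to 10 CPM 23.8%. The median of all genes was 0.75 under 1 CPM and 0.55 at 1 to 3 CPM. Whether the receptor genes differ from other genes of their level was not tested. Or13a18, an odorant receptor gene, had 887, 1229 and 1293 CPM in the sucrose-seeking ensemble, against 449, 616 and 761 CPM in the non-ensemble population (0.90, SE 0.07, adjusted p = 5.167e-10, length-scaled fold change 0.26). Or51v8 had 641, 779 and 814 CPM, against 366, 416 and 532 CPM in the non-ensemble population (0.80, SE 0.06, adjusted p = 5.104e-10, length-scaled fold change 0.27), and the vomeronasal receptor gene Vmn2r114 was at 0.83 (adjusted p = 1.105e-09, length-scaled fold change 0.21). None of the 3 genes overlapped between the groups. Together the receptor genes took 1.97% to 3.76% of gene counts in the sucrose-seeking ensemble and 0.98% to 1.86% in the non-ensemble population, with medians of 2.40% and 2.30% in the cocaine-seeking and overlapping ensembles. This share moved with that of the pseudogenes, and the part that either has in the other was not tested. Per length, Or13a18 averaged 83.1 TPM, a transcript unit corrected for length, in the sucrose-seeking ensemble and 56.8 TPM in the non-ensemble population, against 1018 and 1666 TPM for Snap25.

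Cilium genes leaned higher by counts, 44 higher and 13 lower of 135 (median 0.24), but were balanced with length-scaled counts (17 higher and 17 lower, median 0.12). By counts 20.4% of all genes of at least 10 CPM were higher and 43.1% lower. Cfap91, a gene of the axonemal radial spoke, had 45.0, 62.7 and 67.4 CPM in the sucrose-seeking ensemble, against 22.04, 33.2 and 38.4 CPM in the non-ensemble population (0.87, SE 0.07, adjusted p = 6.058e-10, length-scaled fold change 0.60). Cep89, a centrosomal gene, was higher under both (0.63 and 0.58). Ift80, of the intraflagellar transport complex, was higher by counts (0.72, adjusted p = 6.758e-09) with a length-scaled fold change of -0.09, and the kinesin gene Kif3c was lower by counts (-0.55, adjusted p = 7.116e-08) with a length-scaled fold change of 0.27.

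The largest single changes among protein-coding genes of at least 10 CPM at the stricter threshold were led by predicted and overlapping genes. Of all protein-coding genes, 4.99% were higher and 3.09% lower at that threshold. On the higher side stood Gm42742 (1.98), Gm49396 (1.95), Atp13a5 (1.59), Slco1a4, Cldn5, Gm20605 (1.41), Hypk (1.37), Vps8 (1.35), Ptprv (1.34), Gm6710 (1.34), Lrtm1 (1.32) and Spaca6 (1.31). Atp13a5, a P-type ATPase gene found in brain pericytes, had 11.0, 15.9 and 18.02 CPM in the sucrose-seeking ensemble, against 2.15, 5.37 and 7.01 CPM in the non-ensemble population (SE 0.24, adjusted p = 5.177e-06). Lrtm1, a leucine-rich repeat membrane protein gene, had 43.6, 83.4 and 96.9 CPM, against 13.8, 31.4 and 52.3 CPM in the non-ensemble population (SE 0.14, adjusted p = 1.514e-08). Atp13a5 was separate between the groups and Lrtm1 overlapped. Gm42742, Gm49396, Gm20605 and Hypk overlap other genes on the same strand (Prrt2, U2af1l4, Lrch4 and Serf2 among them), as do Atp13a5 (Gm15752) and Spaca6 (3 miRNA genes), so their counts are uncertain, and Gm42742 lost its call with length-scaled counts (adjusted p = 0.1822).

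On the lower side stood Gm49450, Uba52rt (-2.87), B4gat1 (-2.04), Tomm6 (-1.84), Scamp4 (-1.46), Lrrc8a (-1.37), Lars2 (-1.27), Eif3j2 (-1.24), Efhd1 (-1.21), Ahcy (-1.20), Nefl and Atn1 (-1.16). Gm49450 had no counts in 5 sucrose-seeking libraries and 0.098 CPM in the other, against 0 to 93.5 CPM (median 1.35) in the non-ensemble population, and it overlaps the tubulin genes Tuba1a and Tuba1b on the same strand. Lars2, the mitochondrial leucyl-tRNA synthetase gene, had 1880, 2733 and 3795 CPM in the sucrose-seeking ensemble, against 4072, 6107 and 11300 CPM in the non-ensemble population (SE 0.19, adjusted p = 3.377e-06). Lrrc8a, a subunit of the volume-regulated anion channel, had 17.8, 21.2 and 30.0 CPM, against 44.1, 52.8 and 108 CPM in the non-ensemble population (SE 0.19, adjusted p = 1.093e-06). Atn1, the atrophin gene, had 82.6 to 171 CPM in the sucrose-seeking ensemble and 206 to 297 CPM in the non-ensemble population (SE 0.16, adjusted p = 1.332e-06). None of these 3 genes overlapped between the groups. B4gat1, Tomm6, Scamp4, Lrrc8a, Eif3j2 and Atn1 share strand and position with predicted or other genes, and Uba52rt lost its call when single libraries were left out (highest adjusted p 0.05882) or female pool 2 (adjusted p = 0.064).

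Most genes had the same direction in both sexes. In the female pools 6648 genes (26.4%) and in the male pools 5462 genes (21.7%) passed the test on their own, and 9650 of the 10922 genes of at least 10 CPM had the same sign in both. By edgeR's test of the difference, no gene had a fold change that differed between females and males at an adjusted p under 0.05. At an unadjusted p under 0.05 there were 1002 (3.98%), no more than that threshold gives by chance. Saraf and Eef1d passed when male sucrose-seeking replicate 3 was left out (adjusted p = 0.0339 and 0.0123), and Gm15251 passed in the fit of the 12 libraries alone (adjusted p = 0.00511). These 3 genes are named after their values were seen. The endothelial median was 1.23 in females and 0.69 in males, the mural median 1.02 and 0.54, the pan-neuronal median -0.82 and -0.67, and that of the sensory receptors 0.77 in both. Medians of opposite sign were found for fibroblast and meningeal genes (0.17 in females and -0.46 in males), ependymal genes (-0.09 and 0.15) and ionotropic glutamate receptors (0.004 and -0.10). A difference between the sexes in these list medians was not tested. Females are represented by 3 pools, of which pool 2 carried the Y-linked counts described above.

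**Figure D5:**
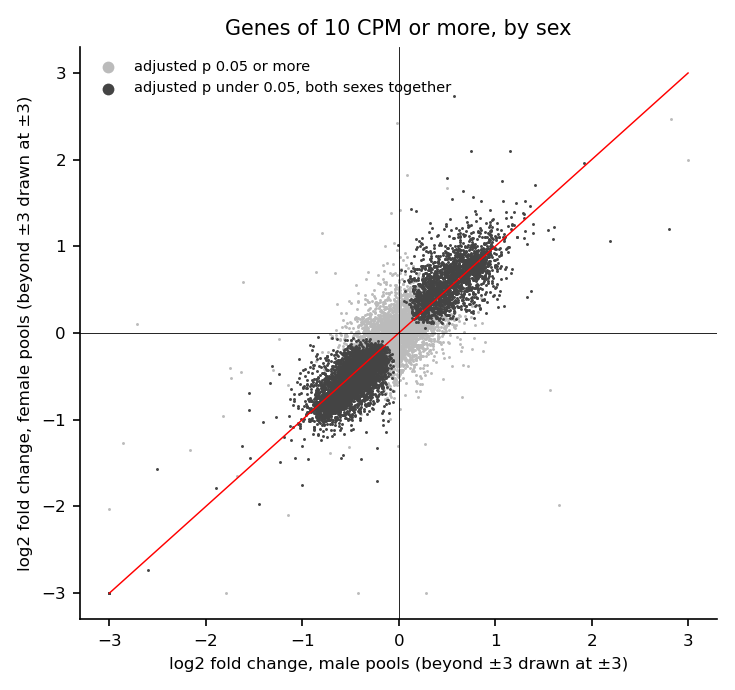
Log2 fold change, sucrose-seeking over non-ensemble, in female pools (vertical) and male pools (horizontal) for genes of at least 10 CPM. The red line marks equal values, and dark points passed an adjusted p of 0.05 with both sexes together. Of 10922 genes 9650 had the same sign in both sexes, and none passed the test of a difference.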

How the data were processed

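The authors ran cutadapt on the reads and Salmon with GRCm39 as reference. They deposited 1 table per library with an estimated count, a TPM value and an effective length for each of 117209 transcripts. The sources used here give no tool versions, Salmon settings or strand handling. Libraries were low-input SMART-seq libraries, described as ribosome-depleted in the methods and as polyA RNA in the labels.

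The deposited estimated counts were summed to 35889 genes (1124 transcripts without an annotation match, 2.25% to 5.08% of counts in the 12 libraries, were left out) and rounded. Deposited TPM values were summed likewise. Groups were taken from the titles, because the description field contradicts the other labels for some libraries. 12 libraries labelled naive were not used, and 24 prefrontal libraries served only to check labels. edgeR 4.0.16 (R 4.3.3) fitted the 24 NAc libraries of all 4 sorted populations with pool and population as terms (TMM scaling, filterByExpr, quasi-likelihood test, Benjamini-Hochberg adjustment), and a second fit let the populations differ by sex. The contrast was sucrose-seeking minus non-ensemble. The stricter threshold follows the study's methods. The script was tested on simulated data. The 12 libraries compared held 10204968 to 21832467 gene counts each. Standard errors and p-values of the main fit rest on the variation left among the 24 NAc libraries once pool and population are fitted. Mice were pooled within each library, so variation between single mice was not measured.

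Populations of a pool come from the same mice by the sorting design. The mean correlation of their deviations from the group means was 0.04 to 0.20 per pool, so the pool was kept as a block. Alternatives were DESeq2 1.42.0, DESeq2 size factors, limma-voom (limma 3.58.1), no low-count filter, length-scaled counts, the 12 libraries alone, protein-coding genes alone, no block, each library left out, and, added after the data were seen, the fit without female pool 2.

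The 37 gene lists and the members were chosen with earlier results of these data known. Named genes are the sort markers, the 12 largest and 12 smallest fold changes among protein-coding genes past the stricter threshold with a mean of at least 10 CPM, up to 5 members of each list with the smallest adjusted p and at least 2 CPM, a set of transmitter and receptor genes, and early activity genes. Single exceptions to a list were named after their values were seen. Named genes whose results are not reported here were left out.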

Additional observations from a re-analysis of the deposited data

Results flagged for a closer look

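Single libraries stood apart from the other 5 of their group in 26 of the 398 groups of 6 values looked at (6.53%), where chance gives about 1 in 20. In 11 of the 26 it was the sucrose-seeking library of male pool 1. That library had the lowest summed level of the mural list (121.7 CPM, next 191.1), of Rgs5 (13.47 CPM, next 43.49), Abcc9 (10.24 CPM), Col4a1 (47.61 CPM), Spaca6 (46.44 CPM), Grik2 (110.0 CPM), Grm7 (89.11 CPM) and Stat2 (19.49 CPM), and the highest of Tbr1 (52.01 CPM), Oas3 (13.29 CPM) and counts on transcripts without a gene (5.083%).

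Other sucrose-seeking libraries that lay apart were male pool 3 for Rbfox3 (254.4 CPM), Tac1 (86.82 CPM) and Kcnj4 (125.1 CPM), male pool 2 for Hypk (19.74 CPM) and Col1a2 (16.24 CPM), female pool 1 for Gm49450 (0.09811 CPM, the other 5 at 0), and female pool 2 for B4gat1 (12.28 CPM) and Ctss (34.22 CPM). Each was the highest of its group.

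Among non-ensemble libraries, female pool 1 had the lowest mt-Co1 (5628 CPM) and the highest share of counts on transcripts without a gene (3.096%), female pool 2 the highest Lrrc8a (108 CPM) and H3c6 (26.02 CPM), female pool 3 the highest summed ependymal level (86.72 CPM, next 32.53), male pool 1 the highest Abcc9 (16.1 CPM) and male pool 2 the lowest Grin2b (1039 CPM).

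Y-linked Ddx3y reached 18.22 CPM in female pool 2, against at most 2.0 CPM in the other female pools.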

How the results depend on the processing

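The number of genes higher in the sucrose-seeking ensemble was 2674 with length-scaled counts and 3362 to 4401 when each library was left out. The number lower ranged over 4285 to 5025 in the fits without 1 library. At the stricter threshold 1735 genes were lower with length-scaled counts and 382 with protein-coding genes alone, and leaving out each library gave 913 to 1616 higher and 374 to 928 lower. The count that differed between the sexes was 1 with the 12 libraries alone and 0 to 2 when each library was left out. Length scaling moved the median gene by -0.204 on the log2 scale.

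Without the replicate block for the pool, 3404 genes were higher and 4317 lower (1051 and 560 at the stricter threshold), and 13 of 155 named genes lost their call: C1qa, Drd1, Drd2, Maff, Klf4, Oas3, Hba-a1, Hbb-bs, Col25a1, Gabrg3, Irf7, Rgs9 and Vmn1r114 (adjusted p = 0.0501 for C1qa to 0.218 for Gabrg3).

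Of the 155 named genes, 102 kept direction and side of the threshold with length-scaled counts and 30 lost their call. The sign changed for Rbfox3 (0.039), Tnr (0.27), Drd2 (0.38), Adora2a (0.0285), Bcl11b (0.14), Rasd2 (0.22), Nos1 (0.35), Slc17a7 (0.26), Arc (0.29), Fosb (0.16), Per1 (0.80), Adcy1 (0.34), Grik5 (0.53), Adgrl1 (0.35), Nlgn2 (0.35), Ift80 (-0.0889), Kif3c (0.27), Atp5mg (-0.66), Col25a1 (0.37) and H4c16 (-0.0446). List medians that changed sign were early activity (0.10), shared medium spiny (0.11), oligodendrocyte precursor (0.30), ependyma (-0.10), ionotropic (0.21) and metabotropic (0.31) glutamate receptors and potassium channels (0.0204). The cause was not tested.

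Leaving out each library in turn gave medians of either sign for ependymal genes (-0.0554 to 0.163), sodium and calcium channels (-0.0542 to 0.0575) and ionotropic receptors (-0.0989 to 0.0133, positive only without male non-ensemble replicate 2). It ended the calls of Uba52rt, C1qa, Siglech, Maff, Klf2, Klf4, Oas3, Col1a2, Gabrg3, Irf7 and Vmn1r114 (highest adjusted p 0.171, for Maff). DESeq2 changed the call of 3 named genes, voom of 6, the fit without the low-count filter of 3, that of the 12 libraries of 3 and that without female pool 2 of 4 (Uba52rt, Maff, Klf2 and Oas3). DESeq2 size factors and protein-coding genes alone changed none.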

Other observations

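The sorted ensembles differed from the non-ensemble population in a graded way for several lists. The summed level of the early activity genes was 679.9 to 914.4 CPM (median 840.5) in the sucrose-seeking ensemble and 964.5 to 1341 CPM (median 1138) in the non-ensemble population, so these ranges did not overlap. The medians of the cocaine-seeking and overlapping ensembles lay between, at 988.3 and 991.5 CPM. The summed level of the delayed activity genes was 949.9 to 1310 CPM in the sucrose-seeking ensemble and 1471 to 1799 CPM in the non-ensemble population, with medians of 1405 and 1379 CPM in the cocaine-seeking and overlapping ensembles. Pericyte and smooth muscle genes had a median sum of 206.8 CPM in the sucrose-seeking ensemble and 126.6 CPM in the non-ensemble population, against 140.0 and 133.7 CPM in the cocaine-seeking and overlapping ensembles. These orders are descriptions of the 4 populations, were not tested and were chosen after the values were seen. Other lists did not follow them. Microglial medians were 534.4 and 622.8 CPM in the cocaine-seeking and overlapping ensembles, against 264.4 CPM in the sucrose-seeking ensemble and 296.1 CPM in the non-ensemble population. Striatal interneuron medians were 817.6 and 812.7 CPM, against 594.8 and 801.9 CPM in the same order.

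Fold changes also varied with the GC content of the longest annotated transcript. Protein-coding genes of at least 10 CPM were put in 5 classes of equal size. In the class of lowest GC content the median log2 fold change was -0.02 from the counts and -0.43 from length-scaled counts, and in the class of highest GC content it was -0.35 from the counts and 0.23 from length-scaled counts. The order over the 5 classes thus ran in opposite directions under the 2 measures, and the part that GC content has in the results was not tested.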
